A study of Mus musculus with 6 samples.

Results

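The nuclear genes whose symbols begin with Nduf encode subunits and assembly factors of mitochondrial complex I, the NADH:ubiquinone oxidoreductase. All rows of the deposited gene table with such a symbol and the biotype protein_coding were taken, which gave 46 genes of 54660 rows. A further 5 rows with an Nduf symbol carry another biotype and lie outside this set. Complex I oxidises NADH in the matrix arm, passes the electrons along flavin and iron-sulfur clusters to ubiquinone, and pumps protons through the membrane arm. The core subunits do the chemistry, accessory subunits surround them, and assembly factors build the enzyme without staying in it. In macrophages stimulated with lipopolysaccharide (LPS), a component of the Gram-negative cell wall, complex I is known as a site of reactive oxygen production, and glycolysis is known to rise while respiration falls.

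The 46 genes were compared between macrophages grown from bone marrow of C57BL/6 mice aged 6 to 8 weeks. One genotype was Xbp1FL/FL, with floxed alleles of Xbp1 (called WT here), and the other is labelled Xbp1M-KO, a knockout of Xbp1 (called KO here). Both were stimulated with LPS and lysed after 6 h, so no unstimulated level was analysed here. Each genotype had 3 libraries of 31976748 to 42448058 counts. The sources used here do not give what drives the deletion, nor whether replicate libraries are from different mice. The p-values therefore describe the spread among these libraries only, and that spread may be technical.

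Xbp1, whose protein switches on genes for protein folding in the endoplasmic reticulum, stood at 91.1, 88.2 and 87.4 CPM, counts scaled to library size, in WT and at 66.2, 65.5 and 65.6 CPM in KO, with no overlap (-0.44 ± 0.0363 SE as a log2 fold change, adjusted p = 2.38e-08 in edgeR). The KO mean was thus 26.0% lower, and most of the gene-level count remained. Counts inside a deleted part were not examined, so this value does not check the deletion. All 10 macrophage markers listed were measured, and 4 were called lower and 5 higher in KO. Their sums were 37614 to 39095 CPM in WT and 20292 to 20966 CPM in KO. The lower sum in KO came mainly from Lyz2, which dominated it, at means of 29816 CPM in WT and 11509 CPM in KO. Of 11 neutrophil markers 7 passed the expression filter and were called higher, but Elane and Prtn3, at means of 0.0803 and 0.177 CPM in WT and 0.484 and 0.577 CPM in KO, passed it through their level in KO, so their direction is no evidence. The listed neutrophil markers had a summed level of 206 to 224 CPM in WT and 294 to 309 CPM in KO. Of 8 stromal markers 7 were measured, with 5 called lower and 1 higher. The stromal sum was 466 to 480 CPM in WT and 240 to 248 CPM in KO. Acta2 dominated it, at means of 347 CPM in WT and 151 CPM in KO. Summed markers of B cells, of T and NK cells and of erythroid cells did not exceed 1.75 CPM in any library, and Ncr1 was at 0. Dendritic cell markers summed to 6.71 to 7.26 CPM in WT and 5.59 to 6.40 CPM in KO. The part of the neutrophil and stromal markers in the results below was not tested. In bulk RNA, fewer cells of a type cannot be told apart from less RNA per cell.

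Transcripts of complex I were lower in KO for most of its subunits, by modest amounts. All 46 genes passed the expression filter, and 36 were called lower and 1 higher in KO, with 9 not called. Over all 13080 genes tested, 61.3% were called, 29.8% lower and 31.5% higher, at an adjusted p under 0.05 (edgeR quasi-likelihood test, Benjamini-Hochberg over all genes). The median log2 fold change of the 46 genes was -0.36, beside 0.00 over all genes tested. For 37 of them every KO library lay below every WT library, a pattern found for 32.3% of all genes tested. The falls ranged from 6.55% to 56.0% of the WT mean, with a median of 25.7%, and 33 of the 36 were smaller than 1.5-fold. The 56.0% is that of Ndufa12, whose genotypes overlapped, and the next largest fall was 41.7%, for Ndufa4. Together the 46 genes took 0.387% to 0.397% of all counts in WT libraries and 0.310% to 0.332% in KO libraries. KO replicate 3 was the highest KO library for 29 of the 46 genes.

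As an alternative, a trend on gene length and GC content, fitted in each library, was removed. Nduf genes are short. Their median exonic length was 1635 bases, beside 3976 bases for all genes tested, while their median GC content was 50.1%, beside 49.7%. With that trend removed, 33 Nduf genes were called lower and 5 higher, where 55.9% of all genes tested were called, 27.6% lower and 28.2% higher. The median was then -0.22. How much of this shift came from length and how much from GC content was not tested. Of the 36 genes called lower, 31 stayed called lower, 3 lost the call, and Ndufv2 and Ndufb3 were called higher. With library totals as the only scaling, which put the median of all tested genes at 0.11 in log2 units, 33 were called lower and 2 higher, beside 22.6% and 39.1% of all genes tested and 61.7% called in all. The authors' deposited table gives 34 Nduf genes as lower and 1 as higher at an adjusted p under 0.05, beside 16.4% and 17.8% of its rows with an adjusted p, or 34.2% in all.

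**Figure D1:**
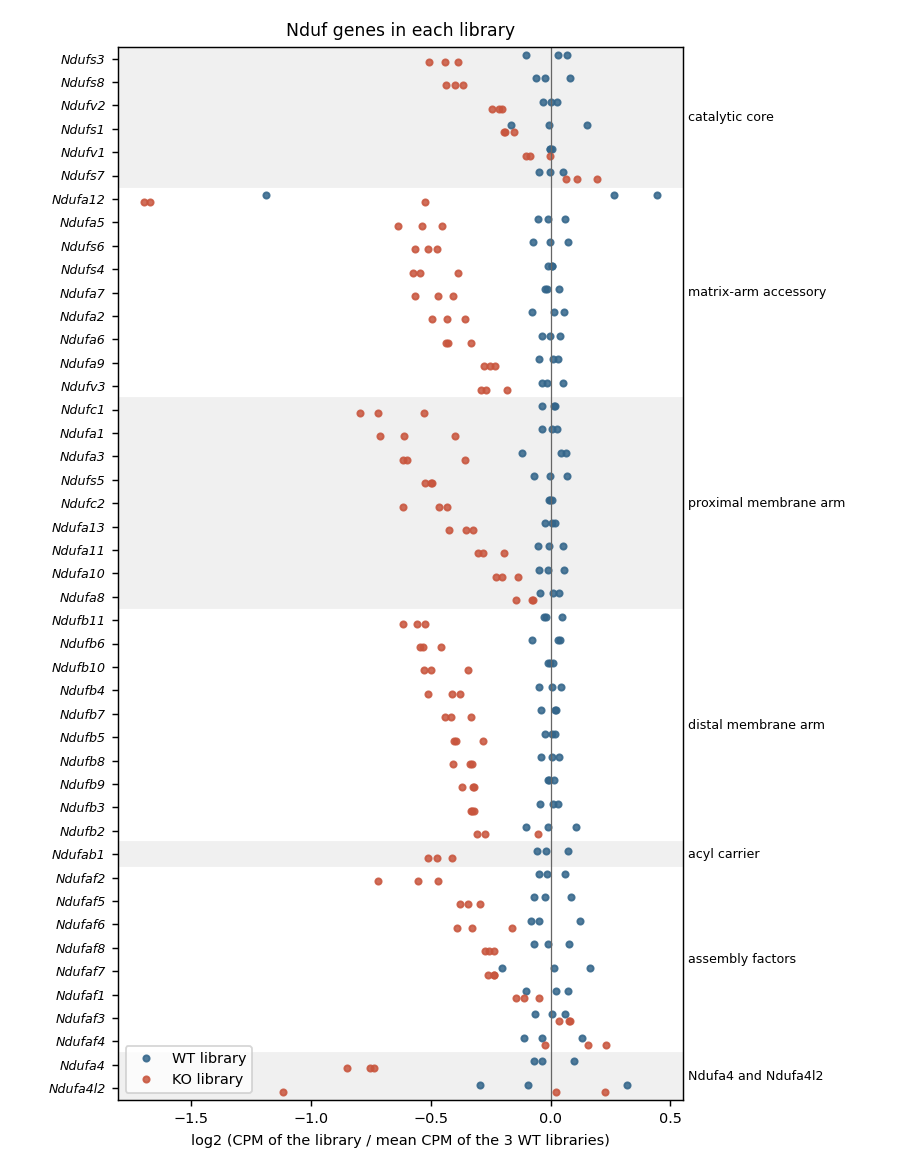
Each point is a library. The x axis gives the log2 ratio of its CPM to the mean CPM of the 3 WT libraries, without units, and rows are 45 of the Nduf genes grouped by role. For 36 of these all KO points lie left of all WT points, Ndufa12 is spread widely in both genotypes, and Ndufs7 lies to the right.

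**Figure D2:**
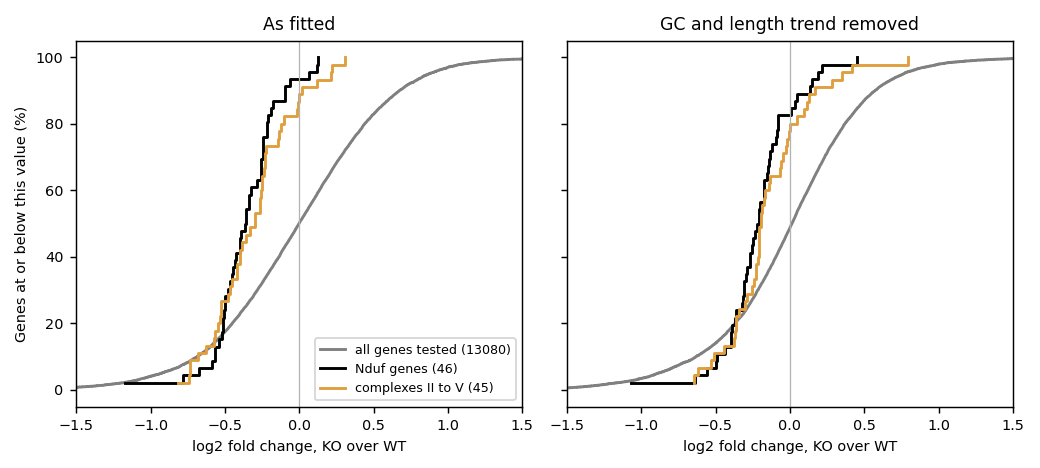
Cumulative share of genes (y axis, percent) by log2 fold change KO over WT (x axis), for all 13080 genes tested, the 46 Nduf genes and 45 nuclear genes of complexes II to V, as fitted (left) and with the GC and length trend removed (right). The Nduf median is -0.36 on the left and -0.22 on the right.

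Of the 7 catalytic core subunits 4 were called lower, 1 higher and 2 not called. Their log2 fold changes ran from -0.44 to 0.13. With the trend removed 5 were called lower and 2 higher. Ndufv1, which binds NADH and the flavin, had 68.9, 69.4 and 68.9 CPM in WT and 64.3, 69.0 and 65.0 CPM in KO. The groups overlapped (-0.06 ± 0.0394 SE as a log2 fold change, adjusted p = 0.180 in edgeR), and after trend removal the value was -0.18 (edgeR adjusted p = 5.87e-04). Its partner Ndufv2, an iron-sulfur protein, had 76.0, 77.7 and 79.2 CPM in WT and 67.5, 65.5 and 66.9 CPM in KO. It was called lower (-0.22 in log2 units, adjusted p = 7.16e-05 in edgeR) but called higher with the trend removed, at 0.19 (edgeR adjusted p = 1.96e-04). Ndufs1, the largest subunit and an iron-sulfur protein, had 12.4, 13.8 and 15.4 CPM in WT and 12.1, 12.1 and 12.4 CPM in KO. Its lowest WT library touched the KO range (-0.18 in log2 units, adjusted p = 0.0656 in edgeR), although without WT replicate 1 it was called, at -0.25 (edgeR adjusted p = 0.0110). It was also called lower with the trend removed, at -0.22 (edgeR adjusted p = 0.0195).

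Ndufs7, which carries the last iron-sulfur cluster before ubiquinone, had 111.9, 107.7 and 104.4 CPM in WT and 113, 117 and 124 CPM in KO. It was the only Nduf gene called higher (0.13 ± 0.0408 SE as a log2 fold change, adjusted p = 0.0142 in edgeR), with every KO library above every WT library. That call was lost without KO replicate 3 (0.09, adjusted p = 0.0796 in edgeR), as it was when genes with near-identical copies were left out of the table (0.09, edgeR adjusted p = 0.0719).

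Ndufs3 had 83.6, 74.2 and 81.5 CPM in WT and 58.8, 56.1 and 61.0 CPM in KO, the lowest log2 fold change of the core at -0.44 (edgeR adjusted p = 5.02e-07). Ndufs8, another iron-sulfur protein, had 93.2, 102.5 and 95.4 CPM in WT and 75.3, 71.6 and 73.7 CPM in KO (-0.40 in log2 units, adjusted p = 3.26e-07 in edgeR). Neither gene showed overlap between genotypes. With the trend removed, Ndufs3 and Ndufs8 were at -0.49 and -0.30, both called.

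All 9 accessory subunits of the matrix arm were called lower, with log2 fold changes from -1.17 to -0.24 and a median of -0.48. All 9 were also called lower after trend removal (median -0.25) and when scaled by library totals. Ndufa5, a small accessory subunit of the ubiquinone-facing module, had 89.4, 85.1 and 82.8 CPM in WT and 59.1, 55.1 and 62.6 CPM in KO (-0.54 ± 0.0473 SE as a log2 fold change, adjusted p = 4.20e-08 in edgeR). At the other end, Ndufa9 had 71.8, 74.7 and 75.9 CPM in WT and 63.1, 62.3 and 61.1 CPM in KO (-0.25, edgeR adjusted p = 2.26e-05). Ndufv3 had 52.7, 51.9 and 55.1 CPM in WT and 44.2, 43.5 and 46.9 CPM in KO (-0.24, edgeR adjusted p = 1.37e-04). None of these groups overlapped. Ndufs6, Ndufs4, Ndufa7, Ndufa2 and Ndufa6 lay between, from -0.52 to -0.40. Loss of Ndufs4 is known as a mouse model of mitochondrial encephalopathy.

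Ndufa12 had the lowest fitted value and the widest spread of all Nduf genes. It encodes an accessory subunit of the matrix arm (ENSMUSG00000020022, chromosome 10, 94198720 to 94221443 on mm10). Its level was 109.5, 96.7 and 35.3 CPM in WT and 24.9, 25.3 and 56.0 CPM in KO. WT replicate 3 lay below KO replicate 3, so the groups overlapped. The fitted log2 fold change was -1.17 (SE 0.315, adjusted p = 0.00401 by edgeR), but DESeq2 made no call (-1.18, DESeq2 adjusted p = 0.0900), nor did limma on the deposited FPKM (adjusted p = 0.0806). The authors' deposited table gives -1.18 with an adjusted p of 0.0891. Among 4681 genes with a mean of at least 20 CPM, Ndufa12 ranked 5 for spread within genotypes, with an SD of 0.79 on the log2 scale, beside a median of 0.05.

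A processed pseudogene, Gm15920 on chromosome 5 (130188395 to 130188796 on mm10), copies most of the Ndufa12 coding sequence. Its annotated 402 bases matched the coding sequence at 99.5% identity, with 2 differences, A147G and T426C, counted from the first coding base and giving the Ndufa12 base before the position and the pseudogene base after it. The longest run without a difference was 278 bases. The stretch from coding base 49 to 168 is shown because it holds A147G, a base that tells the copies apart, within otherwise identical sequence. Capitals mark that base (sequences from GENCODE vM21 transcripts, 5′ to 3′ on the Ndufa12 sense strand).
Ndufa12: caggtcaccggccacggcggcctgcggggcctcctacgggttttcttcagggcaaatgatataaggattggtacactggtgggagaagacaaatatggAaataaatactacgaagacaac
Gm15920: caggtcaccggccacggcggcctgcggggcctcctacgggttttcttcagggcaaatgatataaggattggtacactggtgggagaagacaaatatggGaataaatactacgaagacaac

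Counts assigned to Gm15920 were 63.7% of those assigned to Ndufa12 over the 6 libraries. The pseudogene was at 30.2, 36.2 and 63.3 CPM in WT and 36.8, 36.1 and 26.0 CPM in KO. It was thus highest in WT replicate 3, where Ndufa12 was lowest of its genotype, and lowest in KO replicate 3, where Ndufa12 was highest of its genotype. Summed, the counts of both stood at 139, 132 and 97.7 CPM in WT and 61.1, 60.9 and 81.7 CPM in KO, and the genotypes no longer overlapped. The sum had a log2 fold change of -0.85 (SE 0.111, adjusted p = 4.23e-06 by edgeR). The SD between WT libraries was 39.7 CPM for Ndufa12 and 22.1 CPM for the sum, and between KO libraries 17.8 and 12.0 CPM. How reads were placed between the loci was not tested.

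**Figure D3:**
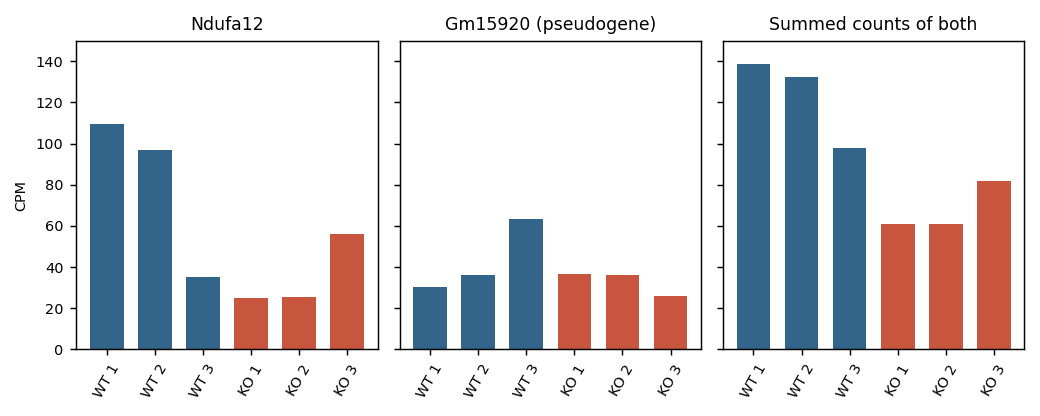
Bars give CPM in each library (y axis) for Ndufa12, its pseudogene Gm15920 and the summed counts of both, with WT in blue and KO in red. In the sum the lowest WT library, at 97.7 CPM, lies above the highest KO library, at 81.7 CPM.

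Near-identical sequence was searched for all Nduf genes. Of the 46 genes 11 share at least 200 bases at 95% identity or more with another gene, and for 10 of these the match is a pseudogene. Besides Ndufa12, only Ndufab1 had pseudogene counts above 10% of its own, at 28.1%, and Ndufb4 came next with 4.09%. Summing pseudogene copies changed no Nduf call. Exons of 19 Nduf genes overlap exons of another gene, and the sources used here do not say whether counting used strand. The overlap takes more than 10% of the exon bases for 7 genes, among them Ndufb6, which shares 39.0% of its bases with Smim27, and Ndufaf2, which shares 65.6% with B230220B15Rik, a row at 0 counts.

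The proximal membrane arm, which joins the matrix arm to the proton pumps, had all 9 nuclear members called lower, with a median of -0.50. Ndufc1, a small membrane subunit (chromosome 3, 51404677 to 51408988 on mm10), fell most in this group. It had 84.3, 81.4 and 84.2 CPM in WT and 50.6, 47.9 and 57.8 CPM in KO (-0.67 ± 0.0546 SE as a log2 fold change, adjusted p = 1.67e-08 in edgeR), or -0.27 with the trend removed. Ndufa1, an X-linked membrane subunit and the shortest gene of the set at 419 bases, had 82.8, 80.6 and 84.1 CPM in WT and 53.9, 50.4 and 62.6 CPM in KO. Its value of -0.57 became -0.08 with the trend removed (edgeR adjusted p = 0.144).

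Within the same arm the smallest falls were those of Ndufa10 and Ndufa8. Ndufa10 had 60.7, 59.1 and 63.6 CPM in WT and 55.6, 52.1 and 53.2 CPM in KO (-0.19, edgeR adjusted p = 0.00107), and -0.07 when scaled by library totals (edgeR adjusted p = 0.147). Ndufa8, which faces the intermembrane space, had 102.4, 100.7 and 96.9 CPM in WT and 94.7, 90.5 and 95.2 CPM in KO. The genotypes were separated by less than 2 CPM, and the call at -0.10 (edgeR adjusted p = 0.0320) was lost under DESeq2 (adjusted p = 0.0697) and without any of WT replicates 1 and 2 and KO replicates 1 and 2 (edgeR adjusted p = 0.107, 0.0867, 0.0676 and 0.185). Scaled by library totals it was at 0.02, and after trend removal at 0.03. Ndufa3, Ndufs5, Ndufc2, Ndufa13 and Ndufa11 were called lower at -0.52 to -0.26, also with the trend removed. Ndufa13 is also known as a regulator of cell death.

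In the distal membrane arm, made by the Ndufb subunits, 9 of 10 genes were called lower, with a median of -0.38. Ndufb11, an X-linked gene, had 218, 207 and 208 CPM in WT and 143, 138 and 147 CPM in KO (-0.56 ± 0.0367 SE as a log2 fold change, adjusted p = 1.17e-09 in edgeR), or -0.40 with the trend removed. Ndufb6 had 156, 155 and 144 CPM in WT and 105, 104 and 110.3 CPM in KO (-0.51, edgeR adjusted p = 1.20e-08), or -0.15 with the trend removed. Both were separated by more than the range of either genotype.

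Ndufb9, which binds the acyl carrier protein in this arm, had 72.6, 72.8 and 73.7 CPM in WT and 58.3, 56.6 and 58.6 CPM in KO (-0.34, edgeR adjusted p = 6.79e-07). Ndufb3 had 70.0, 66.6 and 69.0 CPM in WT and 54.4, 54.6 and 55.0 CPM in KO (-0.33, edgeR adjusted p = 1.37e-06), but was called higher with the trend removed, at 0.15 (edgeR adjusted p = 0.00332). Ndufb10, Ndufb4, Ndufb7, Ndufb5 and Ndufb8 lay between, from -0.45 to -0.36, and of these Ndufb7 was at -0.64 with the trend removed. Ndufb2 overlapped between genotypes (-0.21, edgeR adjusted p = 0.0572), and was called at -0.29 without KO replicate 2 (edgeR adjusted p = 0.0199) and at -0.26 without WT replicate 3 (edgeR adjusted p = 0.0330). Ndufb1-ps, a row with a non-coding biotype and so outside the set, was called lower at -0.67 (edgeR adjusted p = 1.35e-06).

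Ndufab1, the mitochondrial acyl carrier protein, which also serves fatty acid and iron-sulfur cluster synthesis, had 47.9, 46.8 and 51.1 CPM in WT and 34.1, 35.0 and 36.6 CPM in KO. It was called lower (-0.46 in log2 units, adjusted p = 2.69e-07 in edgeR), and the value was -0.50 with the trend removed.

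**Figure D4:**
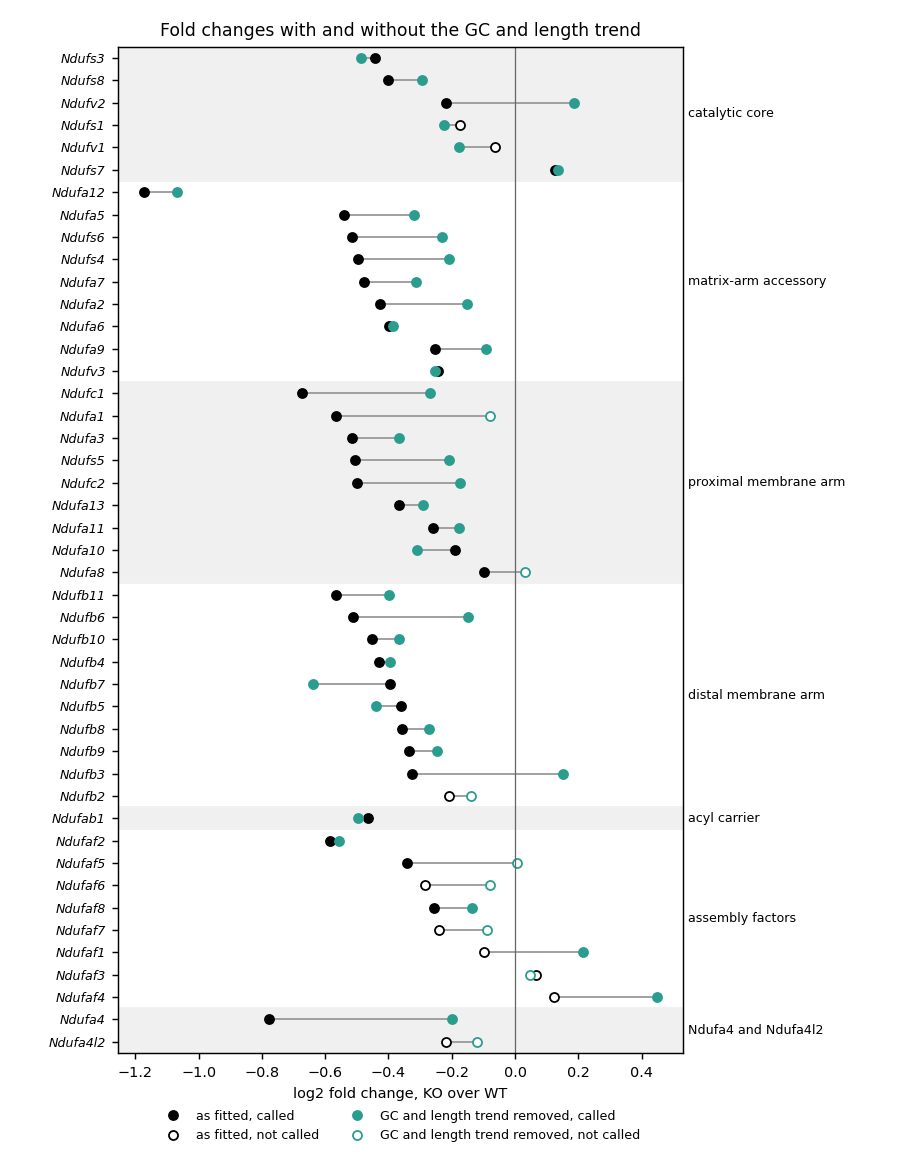
Log2 fold change KO over WT (x axis) of 45 Nduf genes as fitted (black) and with the GC and length trend removed (green), joined by a line. Filled points passed an edgeR adjusted p under 0.05. Ndufv2 and Ndufb3 change sign between called values, while Ndufa6, Ndufv3, Ndufs7 and Ndufaf2 hardly move.

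Of the 8 assembly factors 3 were called lower and none higher, with a median of -0.25. Their share called lower was near the 29.8% of all genes tested. Ndufaf2, an assembly chaperone related to Ndufa12 in sequence, had 8.54, 7.93 and 8.12 CPM in WT and 5.92, 5.58 and 4.98 CPM in KO. It fell most (-0.58 ± 0.0973 SE as a log2 fold change, adjusted p = 6.28e-05 in edgeR), and was at -0.56 with the trend removed. Stretches of its transcripts match genes other than pseudogenes at 95% identity or more, among them Lrrc8d and Abhd2, whose counts were 914% and 202% of its own.

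Ndufaf5, which hydroxylates an arginine of Ndufs7, had 7.05, 6.54 and 6.33 CPM in WT and 5.11, 5.42 and 5.23 CPM in KO (-0.34, edgeR adjusted p = 0.00685). After trend removal it was at 0.01 (edgeR adjusted p = 0.961), while scaling by library totals gave -0.23 (edgeR adjusted p = 0.0596). Ndufaf8, a partner of Ndufaf5, had 51.7, 54.8 and 49.6 CPM in WT and 44.1, 43.1 and 43.5 CPM in KO (-0.26, edgeR adjusted p = 9.69e-05). The other 5 were not called. Ndufaf6 and Ndufaf7, the latter a methyltransferase, were at -0.28 and -0.24, with every KO library below every WT library. Ndufaf1, Ndufaf3 and Ndufaf4 overlapped between genotypes, at -0.10, 0.07 and 0.12. Of these, Ndufaf1 and Ndufaf4 were called higher with the trend removed, at 0.22 (edgeR adjusted p = 0.0468) and 0.45 (edgeR adjusted p = 0.00425). Ndufaf3 was called higher when scaled by library totals, at 0.18 (edgeR adjusted p = 0.00584).

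Ndufa4 carries a complex I name but is a subunit of complex IV, cytochrome c oxidase (chromosome 6, 11900292 to 11907497 on mm10). It had the lowest log2 fold change of the 46 genes after Ndufa12. Its level was 188, 192 and 211 CPM in WT and 118, 109.4 and 117 CPM in KO, or 197 ± 12.3 and 115 ± 4.85 CPM (SD, n = 3 each). The fall was 0.78 on the log2 scale (SE 0.0451, adjusted p = 3.00e-10 by edgeR), and the value with the trend removed was -0.20 (edgeR adjusted p = 1.40e-04). Its paralogue Ndufa4l2 had between 9 and 20 counts per library, 0.553, 0.362 and 0.416 CPM in WT and 0.451, 0.520 and 0.204 CPM in KO. No difference was detectable at this depth (-0.22 ± 0.405 SE as a log2 fold change, adjusted p = 0.662 in edgeR).

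AA467197, whose human counterpart is known to take the place of NDUFA4 in complex IV during inflammation, was listed among the modulators and is named here with its values known. It had 785, 817 and 834 CPM in WT and 582, 561 and 592 CPM in KO. It was thus lower in KO together with Ndufa4 (-0.49 ± 0.0311 SE as a log2 fold change, adjusted p = 9.02e-10 in edgeR), but was at 0.05 with the trend removed (edgeR adjusted p = 0.0895).

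**Figure D5:**
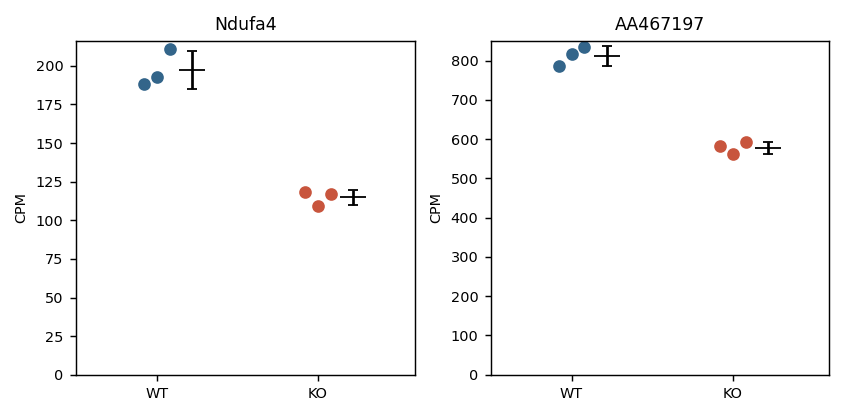
CPM (y axis, from 0) of Ndufa4 and of AA467197 in the 3 WT (blue) and 3 KO (red) libraries, with mean and SD in black. Ndufa4 averages 197 CPM in WT and 115 CPM in KO, and AA467197 averages 812 and 578 CPM.

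Levels per length were compared with the deposited FPKM, fragments per kilobase of all annotated exons. Within WT, Ndufa2 was highest at 370.1 ± 16.1 FPKM (SD, n = 3), followed by Ndufb11 at 230.4 ± 6.73 and Ndufb6 at 228 ± 10.7 FPKM, and the last pair did not differ beyond their spread. Structural subunits at the low end were Ndufs1 at 1.70 ± 0.183 and Ndufb2 at 1.68 ± 0.123 FPKM, also within their spread. Their annotated exons span 8086 and 5628 bases, all of which FPKM counts as length. Assembly factors other than Ndufaf8, at 61.9 FPKM, and Ndufaf3, at 15.8 FPKM, lay between 0.703 and 4.77 FPKM.

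Promoters were inspected because most members moved together. RefSeq promoters (GRCm38.p6, 250 bases before to 50 after the start) were found for 40 of the 46 genes. Words searched on both strands were GCATGCG (core of the NRF1 site), CCGGAAG (ETS factors, which include GABP), AAGATGG (YY1), TGACGTG (core of the XBP1 site) and GGGCGG (Sp1). The NRF1 word was in 5 of 40 genes (12.5%, beside 4.02% of 27025 genes with a promoter), the ETS word in 6 (15%, beside 9.93%), the YY1 word in 8 (20%, beside 7.28%) and the Sp1 word in 21 (52.5%, beside 38.2%). None of the 40 held the XBP1 word, beside 2.22% of all genes. With so low a share over all genes, a set of 40 can readily hold none, so this 0 carries little information. The 27025 genes were not limited to those expressed here, as the Nduf genes are, so the 2 sets are unlike. A word is a description of letters, not a site.

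The promoters of Ndufs7, called higher, and Ndufc1, with the largest fall of the proximal membrane arm, are shown because both hold the YY1 word at a similar distance after the start, at base 25 and base 23, and they were called in opposite directions. Capitals mark that word, the only one of the 5 in either. The word holds the letters ATG, and whether it covers the first codon of the coding sequence was not examined. The other genes with this word, Ndufa3, Ndufa9, Ndufaf8, Ndufb8, Ndufs4 and Ndufs6, were called lower, as were most Nduf genes. Whether the word has a part in any of these calls was not tested. Ndufs7 is on the plus strand at chr10:80249199-80249498 and Ndufc1 on the minus strand at chr3:51408906-51409205.
Ndufs7: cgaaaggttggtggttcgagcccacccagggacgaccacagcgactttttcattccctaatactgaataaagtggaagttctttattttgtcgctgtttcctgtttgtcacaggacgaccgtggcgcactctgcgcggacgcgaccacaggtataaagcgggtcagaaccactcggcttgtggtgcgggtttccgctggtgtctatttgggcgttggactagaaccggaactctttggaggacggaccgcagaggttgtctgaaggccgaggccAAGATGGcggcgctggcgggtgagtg
Ndufc1: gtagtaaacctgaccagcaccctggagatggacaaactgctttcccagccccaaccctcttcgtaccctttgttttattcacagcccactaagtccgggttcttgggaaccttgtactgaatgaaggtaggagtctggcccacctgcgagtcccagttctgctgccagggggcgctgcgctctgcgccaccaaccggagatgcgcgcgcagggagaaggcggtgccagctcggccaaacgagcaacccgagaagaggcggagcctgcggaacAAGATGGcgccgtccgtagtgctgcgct

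Genes that encode, build, feed or regulate complex I under other names are read against the 29.8% called lower and 31.5% called higher over all genes tested. All 7 mitochondrially encoded subunits were called lower (median -0.81), and mt-Nd4, a proton-pumping subunit, had 431, 394 and 446 CPM in WT and 200.2, 197 and 216 CPM in KO with a value of -1.05 (SE 0.0452, adjusted p = 9.63e-12 by edgeR). With the trend removed, 4 of them were called lower and the median was -0.20. Of 12 measured assembly factors without an Nduf name 3 were called lower and 4 higher, with a median of -0.03, shares near those of all genes. Nubpl, which inserts iron-sulfur clusters into complex I, fell from 3.29, 3.29 and 3.04 CPM to 1.95, 1.83 and 1.57 CPM (-0.85, edgeR adjusted p = 2.01e-04). Aifm1, needed for import of complex I subunits and known as apoptosis-inducing factor, rose from 3.87, 4.88 and 3.90 CPM to 5.98, 5.83 and 6.72 CPM (0.55, edgeR adjusted p = 7.62e-04).

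Of 12 genes of iron-sulfur cluster supply 4 were called lower, a share near that of all genes, and 2 higher, with a median of 0.04. Bola3, a late-acting factor, fell from 26.3, 29.7 and 25.4 CPM to 18.0, 18.8 and 21.5 CPM (-0.48, edgeR adjusted p = 3.07e-05). Nfs1, the cysteine desulfurase that provides sulfur, rose from 14.2, 14.3 and 14.99 CPM to 17.5, 17.3 and 18.5 CPM (0.29 ± 0.0627 SE as a log2 fold change, adjusted p = 6.66e-04 in edgeR). With the trend removed the counts were 7 lower and 4 higher. All 4 measured modulators were called lower, 2 of them with the trend removed. Dnajc15, a known inhibitor of complex I, had 54.9, 54.6 and 55.0 CPM in WT and 33.6, 34.9 and 37.1 CPM in KO (-0.64, edgeR adjusted p = 2.90e-09), and -0.61 after trend removal. Nnt, the fifth listed, had 0 to 6 counts per library and was not tested.

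Regulators of mitochondrial biogenesis went mostly the other way, with 6 of 10 measured called higher and 2 lower, and a median of 0.33. Ppargc1b, a coactivator gene counted among the 6, rose from 0.498, 0.332 and 0.192 CPM to 1.17, 0.848 and 0.795 CPM (1.42 ± 0.353 SE as a log2 fold change, adjusted p = 0.00231 in edgeR). It had 18, 11 and 6 counts in WT and 39, 31 and 35 in KO. The WT libraries alone would not have taken Ppargc1b through the expression filter, so its direction is no evidence. Gabpa, an ETS factor that binds promoters of respiratory genes, fell from 14.3, 13.5 and 13.7 CPM to 10.1, 10.1 and 10.6 CPM (-0.43 ± 0.0688 SE as a log2 fold change, adjusted p = 4.01e-05 in edgeR). For Nrf1 and Yy1, named with their values known because their words were searched above, the log2 fold changes were 0.30 (edgeR adjusted p = 3.58e-04) and 0.86 (edgeR adjusted p = 2.37e-10). These 4 kept their direction and call with the trend removed.

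Among nuclear genes of the other respiratory complexes, 37 of 45 were called lower and 2 higher, with a median of -0.30. Over all genes tested the shares were 29.8% lower and 31.5% higher. The lists for complexes III, IV and V had 9 of 10, 12 of 14 and 14 of 17 called lower. The first includes Cycs, the electron carrier cytochrome c, which is no subunit of complex III, and the second includes Cox7a2l, which is also counted among the modulators. Complex II, succinate dehydrogenase, had 2 of 4 called lower and 2 higher. With the trend removed, 30 of the 45 were called lower and 6 higher, beside 27.6% and 28.2% of all genes tested, and the median was -0.20. The difference between Nduf genes and these complexes was not tested.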

How the data were processed

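RNA libraries of LPS-stimulated macrophages, 3 per genotype, were sequenced by the authors, and a single gene table was deposited. Its deposited counts are raw whole numbers for each gene (source: column names and values). FPKM were computed by the authors. The file headers name these columns and a gene length but do not say how libraries were scaled. The deposited signal columns, which hold the authors' mean normalized count per genotype, were not tested. The authors' deposited log2 fold change, p-value and adjusted p-value were used only where named. The sources used here give neither the RNA selection nor the strand setting nor the counting tool. Bowtie 0.12.2, mm8 and mm10 come from the submitters' processing notes, which as given here state no role or order for them. Of 54495 Ensembl identifiers found in the GENCODE vM21 annotation of mm10, 98.3% had identical coordinates. The 128 rows with other identifiers were kept.

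Counts were tested in R 4.3.3 with edgeR 4.0.16 (quasi-likelihood, genotype as the term, TMM scaling, default expression filter), with p-values adjusted over 13080 genes. CPM are TMM-scaled. Each SE was derived from the log2 fold change and its F statistic. The GC and length trend was removed by offsets per library, fitted with mgcv 1.9.3 to the GC content of the longest transcript and the deposited gene length. This also removes any genotype effect that follows these properties. Near-identical copies were found with minimap2 2.31 and, for Nduf genes, blastn 2.17.0. Alternatives used DESeq2 1.42.0 and limma 3.58.1 on log2(FPKM + 1), a scale that understates changes of low genes. The tests were checked on simulated counts in which few genes changed, and those by at least 1.5-fold. That check does not cover data with as many calls as here, nor the smaller changes reported. Libraries of a genotype differed by more than sampling noise (chi-square per degree of freedom 2.77 to 6.29). Genes with few counts per library, such as Ndufa4l2, are measured with low precision.

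Members and gene lists were chosen with earlier results of these data known. All members but 1, which is counted but not reported here, are named. Values in every library are given for core subunits, Ndufa4 and its paralogue, and the called genes with the 2 lowest and 2 highest changes of each role, and other genes are the called extremes of each list.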

Additional observations from a re-analysis of the deposited data

How the results depend on the processing

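Across 10 other settings and 6 fits without 1 library, 682 of 725 values of single Nduf genes kept their direction and their side of the threshold, 15 lost a call, 14 gained one and 14 turned sign, and 29 of 46 genes did not change throughout. The number of Nduf genes called higher, 1 in the report, was 2 with library totals, 5 with the GC and length trend removed, 0 without genes that have near-identical copies, and 0 to 1 without single libraries. The Nduf median was -0.25 with library totals, -0.22 with the trend removed and -0.38 to -0.35 without single libraries, and 35 to 37 genes were then called lower. Trend removal left 4 mitochondrially encoded subunits and 2 modulators called lower, and gave 7 lower and 4 higher for iron-sulfur supply and 6 higher for complexes II to V. Library totals gave 5 higher for iron-sulfur supply, 1 lower for biogenesis regulators and 5 higher for complexes II to V. Leaving out genes with near-identical copies also removes members, and left 29 of 35 Nduf genes, 2 mitochondrially encoded subunits and 2 iron-sulfur genes called lower and 1 gene of complexes II to V higher. Signs turned with library totals for Ndufa8 (0.017), Ndufaf1 (0.017) and Ndufv1 (0.052). They turned with the trend removed for Ndufa8 (0.031), Ndufaf1 (0.22), Ndufaf5 (0.0067), Ndufb3 (0.15), Ndufv2 (0.19) and AA467197 (0.055). Ndufa4l2 ranged from -0.48 to 0.13 without single libraries. Over all genes 8019 were called, 7387 to 7671 without single libraries, 7062 by DESeq2 and 7695 by limma. Why these values moved was not tested. At these depths the 9 to 20 counts of Ndufa4l2 give little precision.

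WT and KO libraries share replicate numbers, but deviations of same-numbered libraries correlated at -0.0368, 0.0355 and 0.0362, so the numbers were not taken to pair them. With the replicate block 8013 genes were called, with 36 Nduf genes lower and 1 higher, and no call on a named gene changed. The replicate block with the trend removed gave 32 Nduf genes lower and 4 higher, since Ndufa9 (adjusted p = 0.0639 in edgeR) and Ndufaf1 (adjusted p = 0.0639 in edgeR) lost the calls they had with the trend removed alone, and gave a median of -0.22, 4 mitochondrially encoded subunits lower, 7 iron-sulfur genes lower and 4 higher, 2 modulators lower and 6 genes of complexes II to V higher, with Ndufa8 at 0.032, Ndufaf1 at 0.22, Ndufaf5 at 0.012, Ndufb3 at 0.15, Ndufv2 at 0.19 and AA467197 at 0.055.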
